A study of Mus musculus with 6 samples.

Results

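The HoxB cluster is a row of homeobox genes on mouse chromosome 11, and its members were followed here along the embryonic aorta. Members were chosen by name, as every gene called Hoxb plus a number, through a probe set with exactly 1 gene symbol. Of 10 such genes 9 were measured, among 19938 genes in all. Hoxb8 was not, because its only annotated probe set also lists Hoxb7. The study compared the ascending with the descending aorta of mouse embryos at 13.5 days postcoitum, all wild-type, on the C57BL/6 background and untreated. It has 6 Affymetrix arrays, 3 for each segment, and asks which expression profiles go with the embryonic origin of the vessel wall. Each array is labelled a biological replicate. No label says which embryos, or how many, gave the RNA, so the p-values cover only the spread among these arrays, and that spread may be technical. All values are log2 expression after the authors' RMA processing, and precision is limited by having 3 arrays per segment.

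Hox genes encode transcription factors that mark position along the head-to-tail axis. Genes at the 3' end of a cluster (low paralog numbers) are switched on earlier and further toward the head, and genes at the 5' end later and further toward the tail. Their proteins bind DNA together with the TALE homeodomain cofactors of the Pbx, Meis and Pknox families, and retinoic acid activates the 3' genes. The smooth muscle of the ascending aorta comes largely from cardiac neural crest and second heart field, and that of the descending aorta from trunk mesoderm, so the segments lie at different positions on this axis.

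The main pattern was a break between Hoxb4 and Hoxb5. On ascending replicates 1 and 2, the measured genes of paralog groups 5 to 9 (Hoxb5, Hoxb6, Hoxb7 and Hoxb9) all lay below every descending array, by 0.56 to 1.57 from the descending mean on the log2 scale. On those 2 arrays the genes of groups 1 to 4 lay between -0.16 and 0.44 of the descending mean. Ascending replicate 3 did not share the low values of groups 5 to 9: it lay between -0.15 and 0.05 there. Hoxb2 was higher on all 3 ascending arrays than on any descending array. No member passed limma's test over all 6 arrays.

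Ascending replicate 3 stands apart from the other arrays of its label across all genes. Its mean correlation across genes (Pearson's r, genes not being independent replicates) was 0.988 with its own group, the other 2 ascending arrays, but 0.996 with the descending group. Ascending replicates 1 and 2 gave 0.992 and 0.989 with their own group, and 0.990 and 0.985 with the descending group. So only replicate 3 was closer to the descending arrays than to its own group, while replicate 2 was the least like them. Whether that array carries the right label cannot be told from the labels, and every ascending mean and p-value over 6 arrays takes its label as given. Results are therefore given with and without it, and since it was singled out by its values, p-values without it are likely too small. Array medians lay between 7.14 and 7.22. The 10 smooth muscle markers, such as Acta2 and Myh11, averaged 10.8 to 11.2 in the ascending and 11.0 to 11.1 in the descending arrays, and 0 of them had a mean under the 25th percentile of all genes. That average covers opposite differences, with 5 markers higher and 5 lower by their means. Of the 10, 2 were lower without overlap (8.95% of all genes), Myh11 (-0.53) among them. Without ascending replicate 3, 1 was called higher, Lmod1 (0.54), against 2.07% of all genes, and 0 lower.

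Sequences are shown first for pieces of the cluster that flank the run from Hoxb5 to Hoxb9. Mir10a sits between Hoxb4 and Hoxb5, where the profile broke, and Mir196a-1 between Hoxb9 and Hoxb13. Hoxb13 lay near 0 on every array, but its signal was low, so a return of the profile there cannot be read. Their main mature microRNAs are printed 5' to 3' with the seed (bases 2 to 8) in capitals, from RefSeq on GRCm38.p6, where miR-10a-5p lies at chr11:96317186-96317208 and miR-196a-5p at chr11:96265187-96265208, both on the plus strand.
miR-10a-5p: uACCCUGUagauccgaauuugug
miR-196a-5p: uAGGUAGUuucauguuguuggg
In that table miR-10a-5p shares its seed with miR-10b-5p, and miR-196a-5p shares its seed with miR-196b-5p, which are encoded in other Hox clusters.

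Promoters of 3 of the 10 genes were in the RefSeq table (Hoxb1, Hoxb4 and Hoxb8). Those of Hoxb1, the most 3' gene, and Hoxb4, the last gene before the break, are shown as examples of members whose mean levels differed by less than 0.1 between the segments. Each run covers bases 250 to 51 before the transcription start, on the plus strand of GRCm38.p6, at chr11:96365508-96365707 for Hoxb1 and chr11:96318017-96318216 for Hoxb4. Capitals mark motif matches on the plus or minus strand.
Hoxb1: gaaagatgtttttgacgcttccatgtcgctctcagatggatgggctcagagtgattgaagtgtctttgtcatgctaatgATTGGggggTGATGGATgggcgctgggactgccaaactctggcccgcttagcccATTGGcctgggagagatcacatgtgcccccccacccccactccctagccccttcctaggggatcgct
Hoxb4: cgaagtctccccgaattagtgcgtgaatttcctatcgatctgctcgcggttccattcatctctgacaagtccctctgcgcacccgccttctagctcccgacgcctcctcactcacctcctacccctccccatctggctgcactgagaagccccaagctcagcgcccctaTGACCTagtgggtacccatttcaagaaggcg

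The motifs searched on both strands of the whole 300-base windows were TGATNNAT (bound by PBX with HOX proteins), TTTATG (CDX proteins), AGGTCA (a nuclear receptor element) alone and as a direct repeat with a gap of 2 or 5 bases, CCAAT and TATAAA. Matches of the repeat are also matches of AGGTCA. Hoxb1 had TGATGGAT, a match to TGATNNAT, starting 162 bases before the start, and 2 matches to CCAAT, read as ATTGG on the printed strand. HOX and PBX proteins are known to bind such sites near Hoxb1 in the hindbrain. Hoxb4 had 1 match to AGGTCA, read as TGACCT on the printed strand, starting 81 bases before the start. Among 32851 promoter windows of the same length, 8.85% held TGATNNAT, 16.3% AGGTCA and 37.4% CCAAT. Neither gene's window held TTTATG (11.9% of windows), TATAAA (13.6%) or a repeat of AGGTCA (0.00913% for each gap). A match is a description of these letters, not a binding site.

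**Figure D1:**
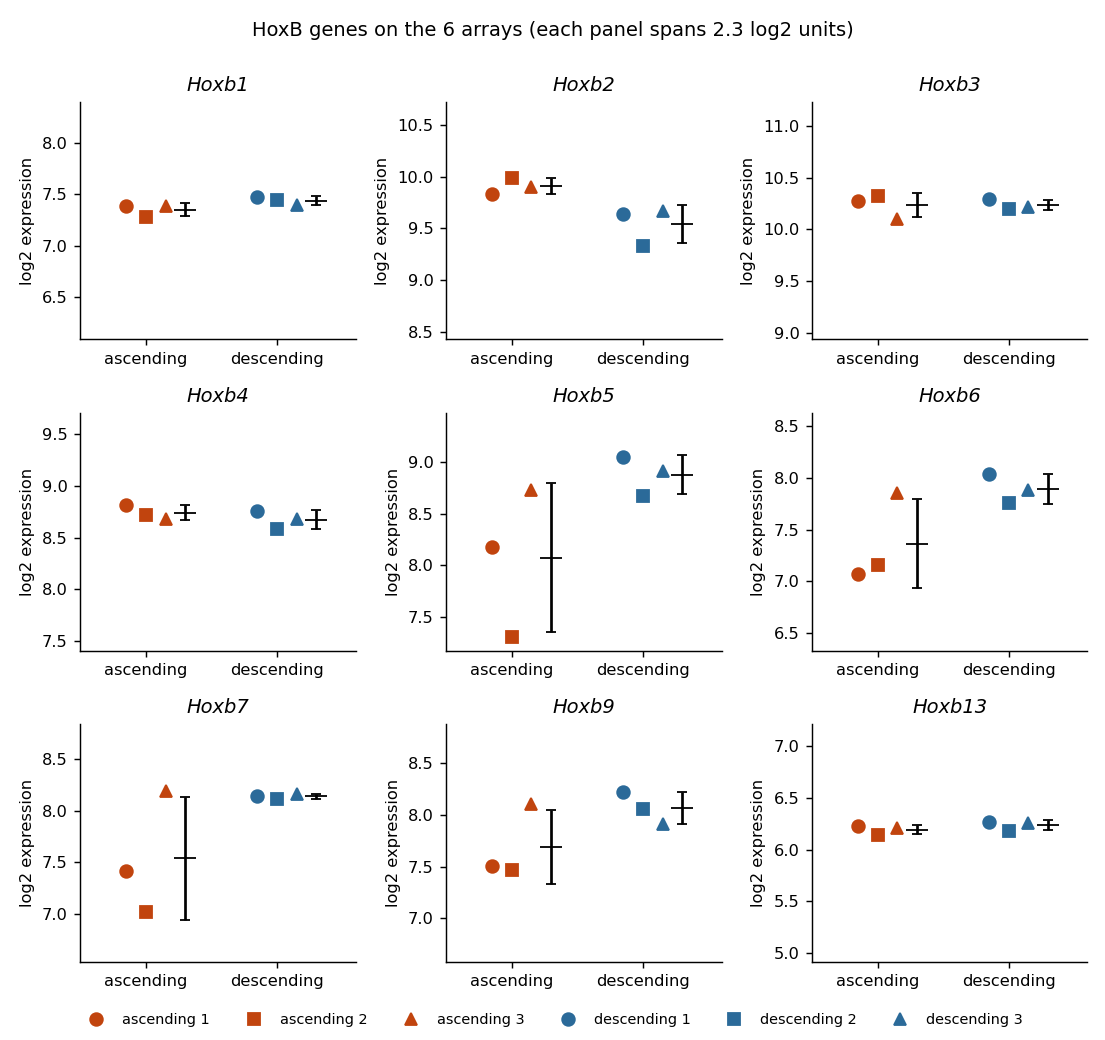
Log2 expression of the 9 measured HoxB genes on each array, with a panel per gene, all panels of equal height (2.3 log2 units) and the mean ± SD (n = 3) of each segment in black. For Hoxb5, Hoxb6, Hoxb7 and Hoxb9 ascending replicates 1 and 2 sit below all descending arrays while ascending replicate 3 sits among or just above them.

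Among the 3' genes, Hoxb1, which patterns the hindbrain, gave 7.39, 7.28 and 7.38 on ascending replicates 1, 2 and 3 and 7.48, 7.44 and 7.40 on descending replicates 1, 2 and 3. The ascending arrays were all below the descending ones, but the gap between the groups was only 0.0083. The difference, ascending minus descending, was -0.088 ± 0.074 (SE; adjusted p = 0.702 by limma).

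Hoxb2, a regulator of hindbrain and cranial nerve patterning, gave 9.83, 9.99 and 9.91 on the ascending and 9.64, 9.33 and 9.67 on the descending replicates. The groups did not overlap, the gap was 0.16, and ascending replicate 3 here lay between the other 2 ascending arrays. Ascending aorta averaged 9.91 ± 0.08 and descending aorta 9.54 ± 0.19 (SD, n = 3 each), so Hoxb2 was 1.29-fold higher in the ascending mean. The difference was 0.36 ± 0.11 (SE) on the log2 scale (unadjusted p = 0.0112, adjusted p = 0.530 by limma). Leaving out descending replicate 2, the lowest array, gave 0.26. Leaving out ascending replicate 3 gave 0.36 ± 0.13 (SE), as over all 6 arrays, with an adjusted p of 0.180 by limma. Over all 6 arrays Hoxb2 had the smallest unadjusted p of the members, but not in the fit without that array, where Hoxb5, Hoxb6, Hoxb7 and Hoxb9 had smaller ones.

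Hoxb3, which acts in hindbrain and pharyngeal patterning, gave 10.28, 10.32 and 10.10 on the ascending and 10.29, 10.20 and 10.21 on the descending replicates. The groups overlapped and their means were equal within the spread, 10.23 ± 0.12 and 10.23 ± 0.05 (SD, n = 3 each). Ascending replicate 3 was the lowest of the 6 arrays for this gene. Hoxb4, best known for blood stem cells and for the anterior trunk, gave 8.82, 8.72 and 8.68 on the ascending and 8.76, 8.58 and 8.68 on the descending replicates. Its groups overlapped as well, with a difference of 0.068 ± 0.083 (SE; adjusted p = 0.797 by limma).

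Hoxb5 is the first gene past the break and is expressed in trunk mesoderm and vessel precursors. It gave 8.18, 7.305 and 8.73 on the ascending and 9.05, 8.67 and 8.92 on the descending replicates. Ascending replicate 2 was the lowest by far, ascending replicate 1 was also below all descending arrays, and ascending replicate 3 lay inside the descending range. The means were 8.07 ± 0.72 (SD, n = 3) and 8.88 ± 0.19 (SD, n = 3), and the difference was -0.81 ± 0.32 (SE; unadjusted p = 0.0385, adjusted p = 0.531 by limma). Leaving out ascending replicate 2 gave -0.42, and leaving out ascending replicate 3 gave -1.14.

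Hoxb6, a gene of trunk and lateral plate mesoderm, gave 7.07, 7.16 and 7.86 on the ascending and 8.04, 7.75 and 7.88 on the descending replicates. Ascending replicates 1 and 2 lay close together, 0.59 below the lowest descending array, and ascending replicate 3 within the descending range. Means of 7.36 ± 0.43 and 7.89 ± 0.14 (SD, n = 3 each) gave an unadjusted p of 0.0329 (adjusted p = 0.530 by limma).

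Hoxb7, which patterns the thoracic axial skeleton, gave 7.42, 7.02 and 8.19 on the ascending and 8.14, 8.12 and 8.16 on the descending replicates. The descending arrays differed by only 0.045, and ascending replicates 1 and 2 lay at least 0.70 below them. Ascending replicate 3 was the highest of the 6 arrays, so the groups overlapped. The means were 7.54 ± 0.60 and 8.14 ± 0.02 (SD, n = 3 each), with a difference of -0.60 ± 0.26 (SE; unadjusted p = 0.0525, adjusted p = 0.538 by limma). Leaving out ascending replicate 2 gave -0.34, and leaving out ascending replicate 3 gave -0.92.

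Hoxb9, a gene of the thoracic skeleton and limb field, gave 7.51, 7.46 and 8.11 on the ascending and 8.23, 8.06 and 7.92 on the descending replicates. Ascending replicates 1 and 2 again lay together, 0.41 below the lowest descending array, and ascending replicate 3 lay inside the descending range. The unadjusted p was 0.0704 (adjusted p = 0.548 by limma).

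Hoxb13, which stands apart at the 5' end of the cluster and is expressed in tail bud, hindgut and prostate, gave 6.23, 6.14 and 6.21 on the ascending and 6.26, 6.18 and 6.26 on the descending replicates. All 6 values lay within a narrow band and the groups overlapped, with a difference of -0.043 ± 0.073 (SE). Its mean lay at the 25.7th percentile of all genes' means, the lowest of the members. At so low a signal, a flat profile says little about the segments. Probe sets respond differently, so this orders no genes by their transcript level.

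**Figure D2:**
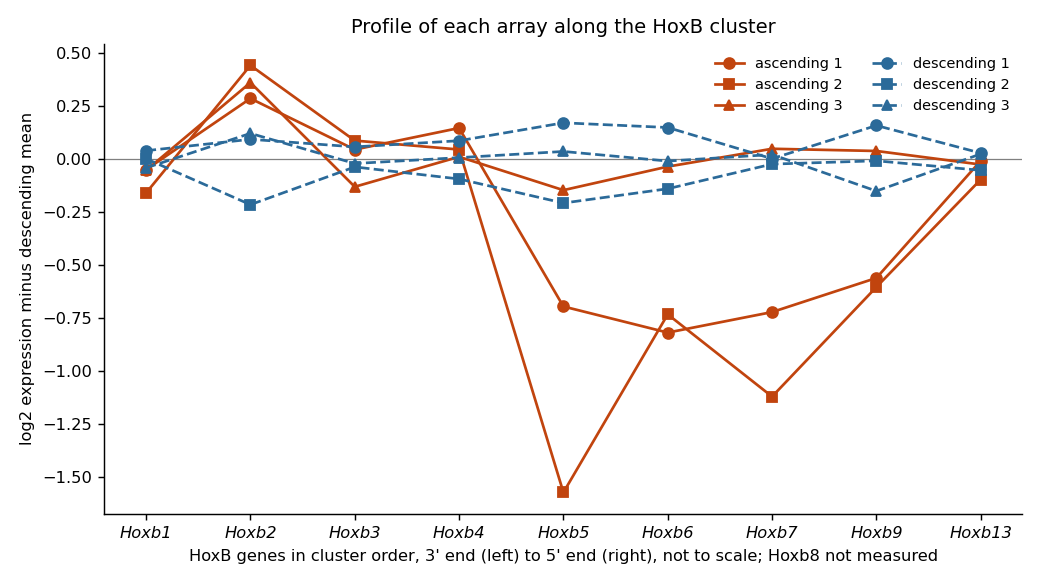
Log2 expression of each HoxB gene on each array minus the mean of the 3 descending arrays, with genes in cluster order from 3' (left) to 5' (right) and a line per array. Ascending replicates 1 and 2 drop at Hoxb5 to -0.70 and -1.57, while ascending replicate 3 lies at -0.15 and 0.05 at Hoxb5 and Hoxb7, at 0.36 at Hoxb2 and at -0.13 at Hoxb3.

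Read along the cluster, genes of groups 1 to 4 had a median distance from their descending means of 0.096, 0.066 and -0.021 on ascending replicates 1, 2 and 3. The median of the 4 measured genes of groups 5 to 9 was -0.71, -0.93 and 0.001 on the same arrays. The descending arrays ran from -0.065 to 0.072 and from -0.082 to 0.15 in those groups, around means that are 0 by construction. The step from Hoxb4 to Hoxb5, taken within each array after subtracting each gene's descending mean, was -0.84, -1.62 and -0.16 on the ascending replicates. It lay between -0.11 and 0.085 on the descending ones, so it was lower on every ascending array. On ascending replicate 3 the margin was small (-0.16, against -0.11 on descending replicate 2) and less than the spread of the descending arrays. Of the 8 steps between neighbouring measured genes, 3 had groups that did not overlap: Hoxb1 to Hoxb2, Hoxb2 to Hoxb3 and Hoxb4 to Hoxb5. Each of these gave p = 0.1 in a two-sided exact permutation test, the smallest that 3 against 3 arrays allow (adjusted p = 0.267 over the 8 steps). The steps into and out of Hoxb2 share that gene, so they are not separate observations. The share of such steps among pairs of all genes was not computed. All steps were compared after the values had been seen, so they describe the break and do not test it. The root mean square distance between mean-centred profiles over the 6 arrays was 0.61 between the neighbours Hoxb4 and Hoxb5. It was 0.32 between the neighbours Hoxb5 and Hoxb6, 0.20 between Hoxb5 and Hoxb7 and 0.12 between Hoxb6 and Hoxb9. Distance did not sort the genes cleanly by side of the break, since Hoxb9 was about as far from Hoxb5 (0.36) as from Hoxb4 (0.33). Hoxb9 was nearer to Hoxb1 (0.25) than to Hoxb5, though nearer still to Hoxb7 (0.21).

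In limma over all 6 arrays, 0 of 9 members passed an adjusted p of 0.05, against 0% of all genes. Under an unadjusted p of 0.05 there were 3 members, against 9.29% of all genes: Hoxb2 higher (3.96% of all genes) and Hoxb5 and Hoxb6 lower (5.33%). The ascending mean was lower for 6 members (56.2% of all genes) and higher for 3 (43.8%). The groups did not overlap for 2 members, against 14.8% of all genes, with Hoxb2 higher (5.87% of all genes) and Hoxb1 lower (8.95%). A count of 2 in 9 is close to that background. Ascending replicates 1 and 2 lay below all descending arrays for 5 members, against 18.9% of all genes, and above them for Hoxb2, against 15.6%. For 4 of those 5, all but Hoxb1, ascending replicate 3 was not below (44.4% of members, against 9.98% of all genes). The median difference was 0.034 over groups 1 to 4 and -0.56 over groups 5 to 9, against -0.021 over all genes.

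Without ascending replicate 3, Hoxb5, Hoxb6, Hoxb7 and Hoxb9 passed in limma, all lower in ascending aorta, which is 4 of 9 members against 4.68% of all genes called and 2.61% called lower. Hoxb5 fell by 1.14 ± 0.24 (SE) on the log2 scale, a 2.20-fold difference (adjusted p = 0.0361 by limma). Hoxb7 fell by 0.92 ± 0.13 (SE), or 1.89-fold (adjusted p = 0.00707 by limma), and Hoxb6 fell by 0.78 ± 0.11 (SE), or 1.71-fold (adjusted p = 0.00819 by limma). Hoxb9 fell by 0.58 ± 0.11 (SE), or 1.498-fold (adjusted p = 0.0268 by limma). The other members did not pass, and 0 were called higher against 2.07% of all genes. An unadjusted p under 0.05 was reached by 5 members, these 4 and Hoxb2, against 17.2% of all genes (9.27% lower and 7.98% higher). The mean was lower for 6 members and higher for 3, against 54.6% and 45.4% of all genes. When descending replicate 1 was left out as well, Hoxb6 and Hoxb7 passed (adjusted p = 0.0281 and 0.0397 by limma), against 469 of 19938 genes. Hoxb5 and Hoxb9 did not pass there (adjusted p = 0.145 and 0.0656 by limma). With each of the other 5 arrays left out alone, 0 members passed.

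**Figure D3:**
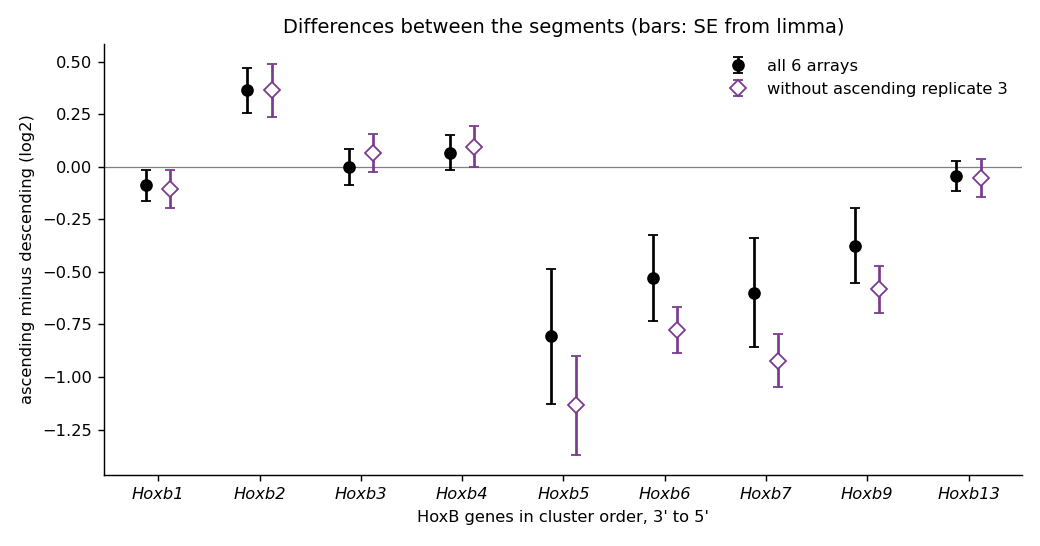
Difference between ascending and descending aorta on the log2 scale for each HoxB gene in cluster order, with SE from limma, over all 6 arrays (filled circles) and without ascending replicate 3 (open diamonds). Hoxb2 stays at 0.36 in both, while Hoxb5 moves from -0.81 to -1.14 and Hoxb7 from -0.60 to -0.92.

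The paralogs in the other clusters give the HoxB values a scale. Hoxb6 differed by -0.53 and, without ascending replicate 3, by -0.78, where Hoxc6 differed by -1.98 and -2.99 and Hoxa6 by -1.48 and -2.25. Hoxb7 differed by -0.60 and -0.92 against -1.14 and -1.70 for Hoxa7, and Hoxb9 by -0.38 and -0.58 against -1.07 and -1.66 for Hoxa9. Hoxb5 was close to Hoxa5 (-0.81 against -0.62, and -1.14 against -1.10 without ascending replicate 3), while Hoxc5 stood at -1.62 and -2.68. So in groups 6 and 7 the HoxB gene had the smaller mean difference of those measured. Hoxb9 did not follow that order, since Hoxc9 (-0.16 and -0.38) and Hoxd9 (-0.12 and -0.17) differed less. Probe sets can respond unequally, and RMA shrinks differences near background, so sizes on different probe sets are not a strict comparison.

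In group 4 Hoxc4 stood apart from Hoxb4 on ascending replicates 1 and 2, while Hoxa4 lay close to Hoxb4. Hoxb4 differed by 0.068, and by 0.096 without ascending replicate 3. Hoxc4 differed by -0.78 and -1.16 (adjusted p = 0.00331 by limma without that array). Hoxa4 differed by 0.16 and 0.15 in these fits, and Hoxd4 by -0.33 and -0.42. HoxA had a similar break after group 4. Without ascending replicate 3, Hoxa2, Hoxa3 and Hoxa4 differed by 0.088, -0.23 and 0.15, and Hoxa5 by -1.10. Taken within each array as Hoxb4 minus Hoxc4, each relative to its descending mean, the ascending replicates stood at 1.24, 1.28 and 0.021 and the descending ones between -0.15 and 0.079, so replicate 3 lay within the descending range (exact permutation p = 0.3). Over 18 pairs of a HoxB gene with a same-numbered gene, the groups did not overlap in 2: Hoxb3 against Hoxd3 and Hoxb4 against Hoxd4. Both had p = 0.1 in the two-sided exact permutation test, the smallest possible (adjusted p = 0.45 over the 18 pairs). No pair could have passed in this design. Hoxb6 minus Hoxc6 stood at 2.31, 2.11 and -0.074 on ascending replicates 1, 2 and 3, and the last value lay within the descending range (exact permutation p = 0.3).

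**Figure D4:**
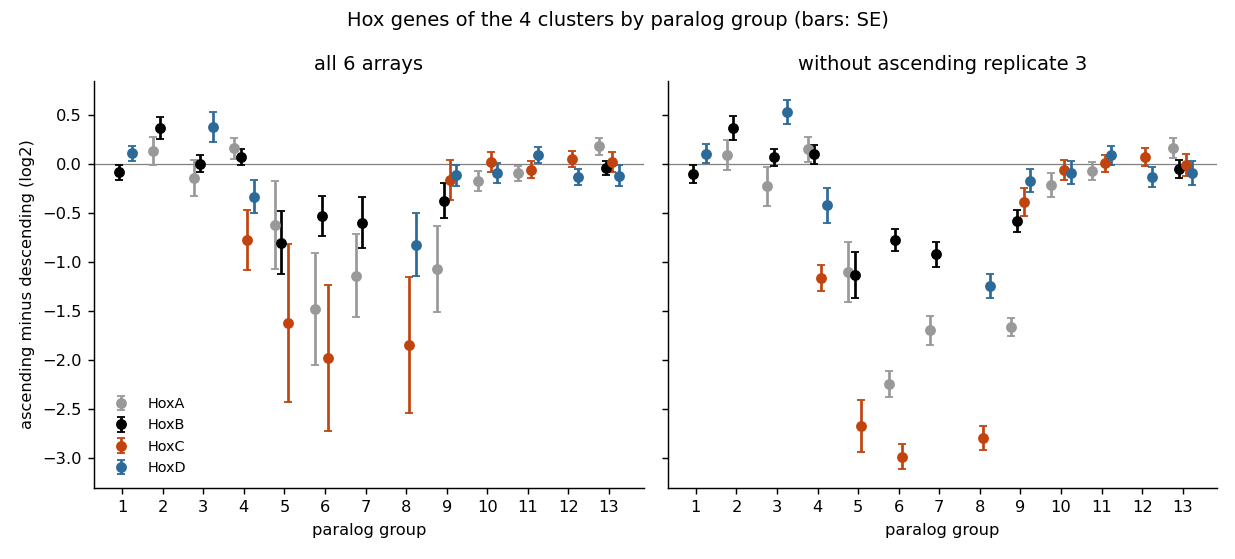
Difference between ascending and descending aorta on the log2 scale (y axis, bars SE from limma) for the measured genes of all Hox clusters by paralog group (x axis), over all 6 arrays (left) and without ascending replicate 3 (right). HoxB genes are near or above 0 in groups 1 to 4 and below 0 in groups 5 to 9, and in group 6 they lie above HoxA and HoxC.

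Genes next to the cluster gave small differences. Of 13 measured genes that flank the cluster on either side, such as Skap1 beyond Hoxb1 and Ttll6 beyond Hoxb13, 6 had a higher and 7 a lower mean in ascending aorta, 0 passed, and 0 passed without ascending replicate 3. Their median difference was -0.010. The genes of this list with the smallest p were Atp5g1 (0.20), Gip (-0.16), Cdk5rap3 (0.18) and Snf8 (0.18). The probe sets of the precursors inside the cluster gave 3.998 to 4.44 for Mir10a and 4.95 to 5.11 for Mir196a-1 over the 6 arrays. Their groups overlapped, with differences of 0.053 ± 0.14 and -0.077 ± 0.073 (SE). Both means were low, at percentiles 4.1 (Mir10a) and 10.9 (Mir196a-1) of all genes' means, so these small differences say little about the precursors. Levels of the mature sequences shown above were not measured here.

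The TALE cofactors are the DNA-binding partners of the Hox proteins. By their means 6 of 8 measured genes were higher in ascending aorta, 0 passed, and the list median was 0.15 against -0.021 over all genes. Pbx3 gave 10.945, 11.36 and 10.97 on the ascending and 10.70, 10.36 and 10.59 on the descending replicates. Its groups did not overlap, and ascending replicate 3 lay with the other ascending arrays, as it did for Hoxb2 (difference 0.54 ± 0.14 SE, adjusted p = 0.530 by limma). Pbx4 gave 7.95, 8.31 and 7.90 on the ascending and 7.67, 7.62 and 7.82 on the descending replicates, and its groups did not overlap. Meis2 and Pbx2 differed by 0.27 ± 0.13 and 0.14 ± 0.11 (SE).

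Of 18 measured upstream regulators of Hox genes, 9 had a higher and 9 a lower mean, and 0 passed with or without ascending replicate 3. Aldh1a2, which makes retinoic acid, differed by 0.52 ± 0.20, and Cyp26b1, which breaks it down, by 0.27 ± 0.15 (SE). The orphan receptor gene Nr2f2 differed by -0.23 ± 0.12, and the homeobox gene Gbx2 by -0.14 ± 0.071 (SE). Of 25 Polycomb and Trithorax genes, whose products hold Hox genes silent or active, 9 had a higher and 16 a lower mean and 0 passed in either fit. Ezh2, the Polycomb methyltransferase, differed by -0.31 ± 0.10, Bmi1 by 0.36 ± 0.16, Rnf2 by -0.19 ± 0.085 and Phf19 by -0.17 ± 0.075 (SE).

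Among 5 other genes of retinoid handling, which take up, bind or convert retinoids, 4 had a lower mean in ascending aorta and 0 passed over all 6 arrays. The list stood at -0.48, -1.29 and 0.10 on ascending replicates 1, 2 and 3, relative to the descending mean. That is the array order of Hoxb5, with replicate 2 lowest and replicate 3 near the descending arrays. Without ascending replicate 3, 2 of the 5 passed lower, against 2.61% of all genes: Stra6, a receptor for vitamin A uptake, fell by 1.29 ± 0.16 (SE; adjusted p = 0.00418 by limma), and Crabp1, a retinoic acid binding protein, fell by 1.82 ± 0.32 (SE; adjusted p = 0.0201 by limma). Crabp2 and Dhrs3 differed by -0.88 and -0.25 in that fit and did not pass.

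**Figure D5:**
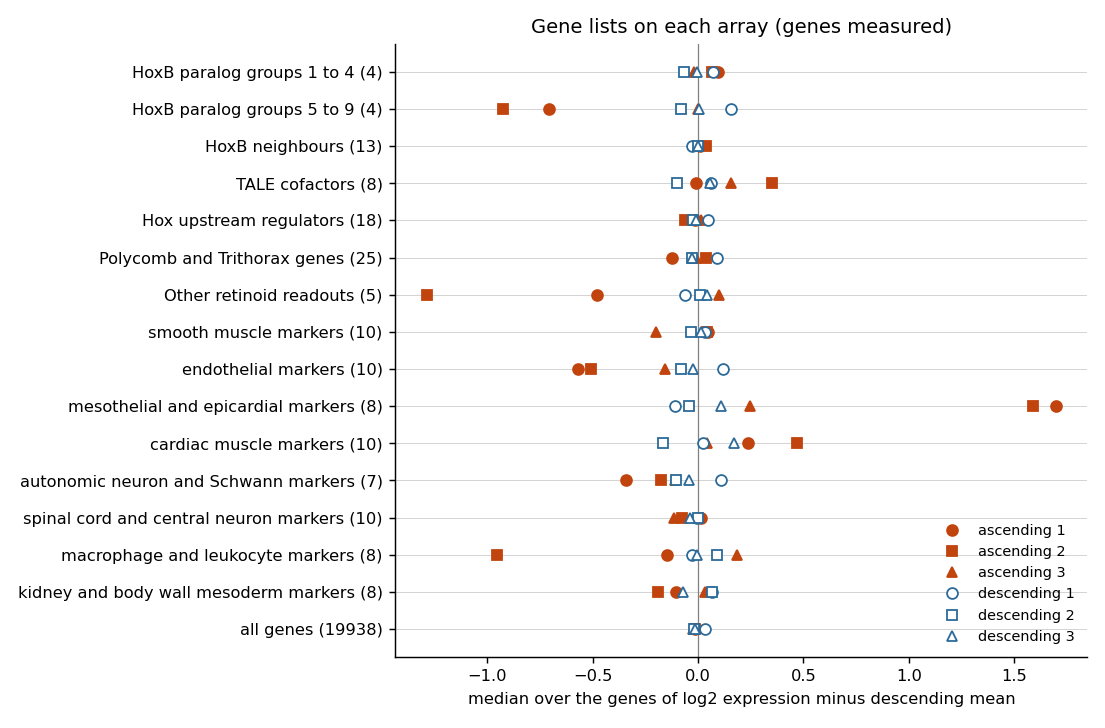
Median over each gene list of log2 expression minus the descending mean (x axis), a symbol per array, for HoxB groups, related genes and cell type markers (genes measured in brackets). HoxB groups 5 to 9 are low only on ascending replicates 1 and 2, on which mesothelial markers are also highest, at 1.70 and 1.59.

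Markers of several other cell types also differed among the ascending arrays, not all in the same array order. In dissected tissue, fewer cells of a type and less RNA per cell cannot be told apart. The 8 mesothelial and epicardial markers stood at 1.70, 1.59 and 0.24 on ascending replicates 1, 2 and 3, relative to the descending mean, with 7 of 8 higher by their means. Their mean level ran from 8.91 to 10.2 in ascending and from 8.63 to 8.84 in descending arrays. The 10 endothelial markers stood at -0.57, -0.51 and -0.16, with 10 of 10 lower and mean levels of 10.3 to 10.9 against 10.95 to 11.2. Macrophage and leukocyte markers stood at -0.15, -0.96 and 0.18, with 8 of 8 lower and mean levels of 7.61 to 8.83 against 8.72 to 8.85. The 10 cardiac muscle markers stood at 0.23, 0.47 and 0.044, with 10 of 10 higher and mean levels of 8.31 to 9.08 against 8.05 to 8.44. Without ascending replicate 3, 6 of 8 mesothelial and 2 of 10 cardiac markers were called higher and 0 lower (2.07% of all genes called higher). In that fit 5 of 10 endothelial and 3 of 8 macrophage markers were called lower and 0 higher (2.61% of all genes called lower). The part of these lists in the HoxB values was not tested.

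Spinal cord and central neuron markers, from a tissue rich in Hox transcripts, stood at 0.015, -0.077 and -0.12 on the ascending arrays. Their mean level was 6.43 to 6.64 in ascending and 6.55 to 6.58 in descending arrays. Of the 10 genes, 4 (Neurod1, Slc17a6, Pax6 and Chat) had means under the 25th percentile of all genes. Without ascending replicate 3, 1 was called higher and 1 lower. Isl1 differed by 1.45 and Nkx6-1 by -0.56 in that fit. Autonomic neuron and Schwann cell markers stood at -0.34, -0.18 and -0.11, with 6 of 7 lower by their means (56.2% of all genes) and mean levels of 7.84 to 8.05 against 8.08 to 8.39. Elavl4 went the other way, by 0.61. Without ascending replicate 3, 1 of the 7 was called higher, Elavl4 (0.92), against 2.07% of all genes. In that fit 1 was called lower, Ednrb (-0.99), against 2.61% of all genes. Kidney and body wall mesoderm markers stood at -0.11, -0.19 and 0.035, with 6 of 8 lower and mean levels of 8.13 to 8.80 against 8.69 to 8.74. That median hides Foxd1, which stood at -3.00, -3.83 and 0.40 on ascending replicates 1, 2 and 3. Without ascending replicate 3, 1 of the 8 was called lower, Foxd1, and 0 higher. Its difference was the largest in size of all genes in both fits. The part of the neural and mesodermal lists was not tested.

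The 2 members that varied most over the arrays were Hoxb5 (SD 0.65) and Hoxb7 (SD 0.50). Genes were ranked by the root mean square distance between their mean-centred profile and that of the member over 6 arrays, leaving out Hox genes. Closest to Hoxb5 were Arsb, the lysosomal arylsulfatase B, at a distance of 0.058, C1qtnf7 at 0.066, the ectonucleotide pyrophosphatase gene Enpp3 at 0.078, and Slc24a3, a sodium/calcium exchanger, and C5ar1, a complement receptor, both at 0.11. Arsb gave 10.42, 9.53 and 11.03 on the ascending and 11.28, 10.89 and 11.01 on the descending replicates. Closest to Hoxb7 were Serpinf1 at 0.049, Gli1, a transcription factor of Hedgehog signalling, at 0.056, Olfml3 at 0.056, the metalloprotease gene Adam12 at 0.062, and Emilin3 at 0.065. Gli1 gave 7.56, 7.21 and 8.42 on the ascending and 8.40, 8.41 and 8.45 on the descending replicates, with the same nearly flat descending arrays as Hoxb7. With 19938 genes and 6 arrays, close profiles are easily found, and no test was made of them.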

How the data were processed

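Total RNA of 6 samples was labelled as biotinylated cRNA for Affymetrix arrays, as the labels' protocols describe. The deposited values are log2 expression per probe set after the authors' RMA, which corrects background, equalises array distributions and summarises probes. Both RMA and Partek 6.6 come from the submitters' processing notes. A genome build is not given in the sources used here. Deposited values ran from 2.53 to 14.6 and were taken as log2. A shift common to most genes is removed by this normalization.

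Of 35556 probe sets, 21789 had 1 gene symbol in the platform annotation, 1621 several and 12146 none. Entrez numbers of 21698 matched a RefSeq gene table (GRCm38.p6) and 0 symbols differed. The probe set with the highest mean was kept per gene, which left 19938 genes. No filter was applied, and each measured HoxB gene had a single such probe set.

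Segments were compared with limma 3.58.1 in R 4.3.3 (lmFit and eBayes, two-sided, no covariates, all 6 arrays) across all genes, and p-values were adjusted by Benjamini-Hochberg over the 19938 genes, with calls at 0.05. Differences are ascending minus descending. Python 3.11.15, pandas 2.3.3 and matplotlib 3.10.9 made the tables and plots, and the scripts were tested on simulated data. The alternatives were repeated quantile normalization, median-centring, filters on dim genes, other probe set choices, other variance models, array weights, a replicate block and leaving out arrays.

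Every measured HoxB gene is named. Of the lists of related genes the 4 with the smallest p are named, besides genes given as examples and same-numbered Hox genes. For the cell type markers that rule was not followed. Only examples, genes with low means and some genes called without ascending replicate 3 are named there. The members and lists were chosen with earlier results of these data known. The steps between neighbouring genes were compared after the values had been seen.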

Additional observations from a re-analysis of the deposited data

How the results depend on the processing

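The signs of Hoxb1, Hoxb2, Hoxb4, Hoxb5, Hoxb6, Hoxb7 and Hoxb9 were the same under all alternatives that gave them a value. With 1 array left out at a time, 0 to 933 genes and 0 to 4 HoxB genes passed, and all calls came without ascending replicate 3. Without ascending replicate 3 and descending replicate 1 together, 469 genes and 2 HoxB genes passed, and the median over groups 1 to 4 was 0.12. The median over groups 1 to 4 ran from 0.0015 to 0.081 and that over groups 5 to 9 from -0.85 to -0.38 as arrays were left out. The Hoxb3 difference, near 0, ran from -0.043 to 0.066 as arrays were left out, and was 0.095 without ascending replicate 3 and descending replicate 1. Repeated quantile normalization gave -0.00088 for Hoxb3 and 0.00097 for Hoxb13. Pairs of same-numbered Hox genes without overlap numbered 4 to 9 of 18 as arrays were left out, against 2 over all 6; leaving out an array can only keep or raise that count, so the rise carries no information on stability. Same-numbered arrays of the 2 segments did not deviate together (correlations of deviations across genes -0.080, -0.055 and 0.024), so the numbers were not taken as pairs. The replicate block gave 0 genes, 0 HoxB genes and medians of 0.034 and -0.56. With the filter at the 50th percentile, Hoxb5 alone was left of groups 5 to 9. At an unadjusted p under 0.05 the other variance models and array weights counted 1 to 5 HoxB genes. An ordinary linear model counted 1 HoxB gene and 1234 of all 19938 genes, and array weights counted 5 and 2759. Why these values moved was not tested.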
